A study of Rattus norvegicus with 16 samples.

Results

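Interferon-stimulated antiviral effectors and sensors were followed in rat pancreatic islets that had received an adenovirus. The set is a list of 55 gene symbols grouped by what the genes are known to do. It was chosen with earlier results of these data known, so its counts are not independent of these arrays. A symbol with several probe sets was read from the one whose mean level over the 16 arrays was highest. Of the 55, 46 were measured among the 14217 genes of the arrays. The other 9 (Oas2, Oasl2, Slfn3, Ddx58, Gbp5, Ifi47, Xaf1, Trim21 and Tlr3) had no probe set under their own symbol and were not analysed here.

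All islets came from male Wistar rats aged 8 weeks and were kept in medium with 8 mM glucose and 10% serum. The groups were untreated islets (n = 5 arrays), islets given a β-galactosidase adenovirus as the virus control (Adβgal, n = 6) and islets given an adenovirus for Nkx6.1, a beta cell transcription factor (AdNkx6.1, n = 5). Virus was present for 18 h and was then replaced by virus-free medium, and islets were collected at 48 h. Both viruses were given at the same stated approximate particle concentration, and the infection actually reached was not measured here. Whether the islets of an array came from 1 animal or from several is not given in the sources used here, so the p-values measure the spread between arrays. RNA came from whole islets, in which fewer cells of a type and less RNA per cell cannot be told apart. The sources do not say which islet cells took up virus.

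Cells that sense viral nucleic acid release type I interferon, which signals through the kinases Jak1 and Tyk2 to a complex that holds Stat2 and Irf9. That complex binds the interferon-stimulated response element (ISRE) of the genes described here, whereas interferon gamma acts through the gamma-activated site (GAS). The products detect viral RNA or DNA, block viral entry, copying and release, or recruit T cells, and in islets the same program is known from virus-infected and autoimmune beta cells.

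Promoters, taken from RefSeq for the assembly GRCr8 as the 250 bases before and 50 after each annotated start, were found for 37 of the 46 measured genes. An ISRE was searched as GAAA, then any 2 bases, then GAAA, and a GAS as TTC, then any 3 bases, then GAA, on both strands, and a match is a description of the letters and not of binding. An ISRE lay in 23 of the 37 promoters (62.2%), against 3.92% of 33469 RefSeq promoters of the same length. Of the 23, 19 had one that began 1 to 110 bases before the start, and 6 had more than 1. A GAS lay in 9 of the 37 (24.3%), against 8.87% of all promoters. Igtp, Irgm, Parp14 and Bst2 held both with first bases at most 20 apart, an arrangement of 28 of the 33469 promoters (0.0837%). Their windows are shown first because each of these genes differed between the viruses in the results that follow, a grouping that was noticed after the values were seen. Capitals mark the GAS followed by the ISRE.
Igtp (chr10:42874913-42874973, plus strand): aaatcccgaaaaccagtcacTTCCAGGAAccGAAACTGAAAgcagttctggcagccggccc
Irgm (chr10:33742583-33742643, minus strand): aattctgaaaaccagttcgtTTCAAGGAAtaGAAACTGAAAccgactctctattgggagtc
Parp14 (chr11:78408027-78408087, plus strand): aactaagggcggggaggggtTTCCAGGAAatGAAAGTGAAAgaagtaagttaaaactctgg
Bst2 (chr16:18255063-18255124, minus strand): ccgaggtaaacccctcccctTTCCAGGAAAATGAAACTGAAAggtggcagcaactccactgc
In Igtp, Irgm and Parp14 the first bases of the GAS and the ISRE were 11 bases apart. In Bst2 the run of capitals holds 2 overlapping ISRE matches, the first of which also overlaps the GAS, and their first bases were 6 and 12 bases after that of the GAS.

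The next windows belong to genes with large differences between virus-treated and untreated islets and hold an ISRE in capitals without a GAS inside the window shown. Ddx60 has a repeated ISRE and Oas1a an overlapping pair, while in Ifit3 and Rsad2 the element lies on the opposite strand and is read here as its reverse complement.
Ifit3 (chr1:241527262-241527311, plus strand): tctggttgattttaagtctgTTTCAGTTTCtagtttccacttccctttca
Ddx60 (chr16:33208849-33208932, minus strand): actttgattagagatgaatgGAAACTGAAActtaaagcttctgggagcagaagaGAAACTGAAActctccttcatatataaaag
Rsad2 (chr6:48788238-48788287, minus strand): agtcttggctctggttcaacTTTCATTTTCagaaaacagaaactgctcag
Oas1a (chr12:41330405-41330460, plus strand): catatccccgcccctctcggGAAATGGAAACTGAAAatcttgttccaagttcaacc
Mx1, Oasl and Slfn4, which are among the genes of largest change below, had no match to these ISRE letters in their windows. The plot of motif positions shows where the matches lie. The window reaches 250 bases before the start and 50 after it, so most positions in it are upstream. Positions and repeats of the ISRE were not compared with those in other promoters. The GAS matches lay from 250 bases before the start to 32 after it.

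**Figure D1:**
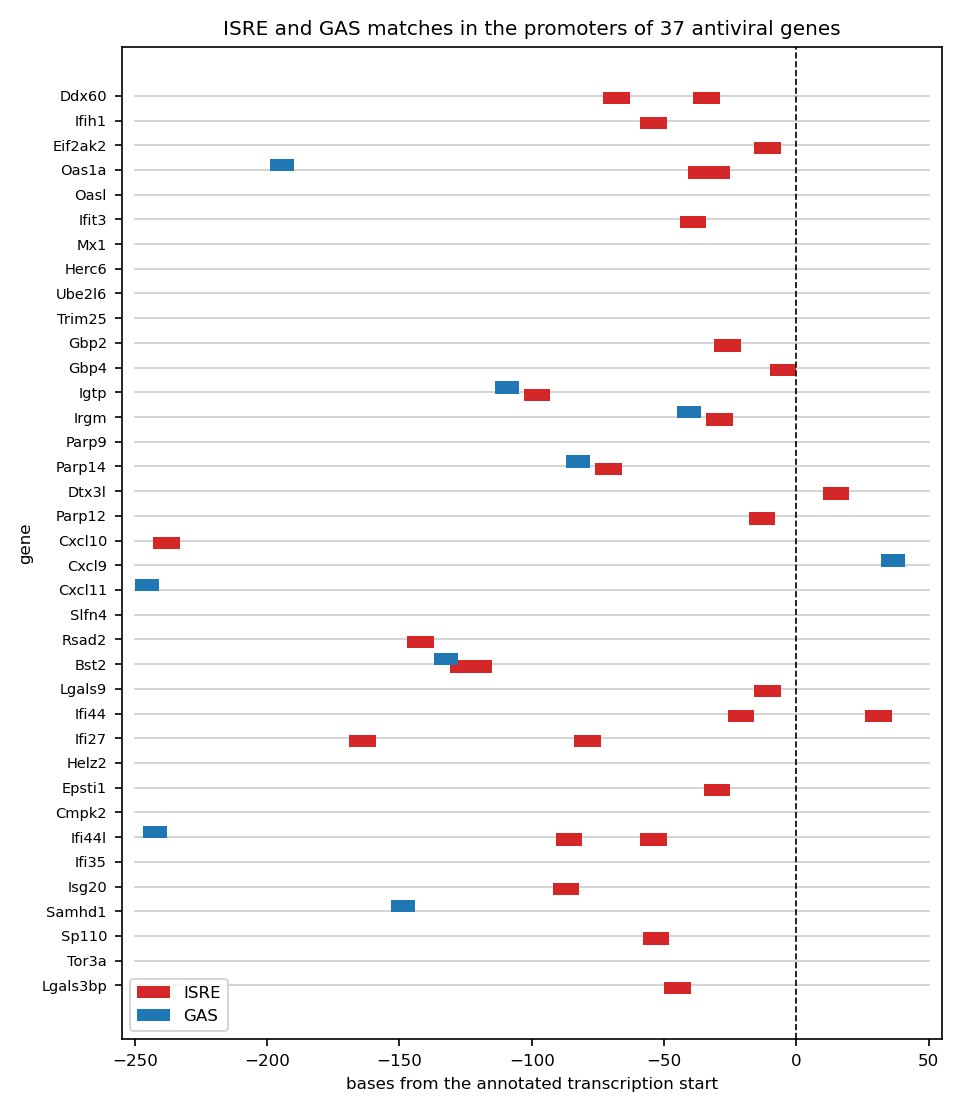
Positions of ISRE and GAS matches in the 300-base promoters of the 37 antiviral genes with a RefSeq promoter, with the distance from the annotated start in bases on the horizontal axis and 1 gene per row. Of the 23 genes with an ISRE, 19 have one that begins 1 to 110 bases before the start.

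Values were log2 intensities on 1-colour arrays. Median intensity per array ranged from 264.8 to 296.2. Ins1, Ins2, Iapp and Gcg, the defining hormones of beta and alpha cells, were among the brightest genes of the arrays. The Nkx6-1 probe set read 12.23 ± 0.09 (SD, n = 5) untreated, 11.9 ± 0.19 (n = 6) with Adβgal and 11.43 ± 0.17 (n = 5) with AdNkx6.1. It was thus lower with the virus that carries Nkx6.1, and whether this probe set lies in the delivered sequence is not given, so it checks nothing about the labels.

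With the control virus, the antiviral genes were higher than in untreated islets as a group, which is the comparison of virus exposure with none. The median log2 change of the 46 was 0.78, against -0.04 over all 14217 genes, and all 46 lay above 0, as 42.4% of all genes did. Past the threshold (limma, adjusted p of 0.05 over all genes), 28 of the 46 rose and 0 fell. Over all genes 2.84% rose and 4.17% fell. At least 2-fold, 22 of the 46 rose, against 0.499% of all genes. For 23 of the 46, every Adβgal array lay above every untreated array, which held for 2.05% of all genes. The members of largest change were the effectors Slfn4, Ifit3, Mx1, Mx2 and Isg15 and the helicase Ddx60. The untreated means of Ifit1, Ifit3, Slfn4, Ifih1, Gbp4, Zbp1 and Cxcl9 lay under a log2 intensity of 6, so a fold against these dim levels is not exact.

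With AdNkx6.1 against the control virus, the comparison in which both arms received virus, the group was higher again but by less. The median log2 change was 0.48, against 0.02 over all genes, and 45 of the 46 lay above 0, as 52.8% of all genes did. Here 19 of the 46 rose and 0 fell, while 16.6% of all genes rose and 8.48% fell. At least 2-fold, 7 of the 46 rose (2.79% of all genes). AdNkx6.1 arrays lay wholly above Adβgal arrays for 4 of the 46, Oasl, Bst2, Igtp and Tor3a, against 10.4% of all genes, so full separation was not more common here than over all genes. Adβgal replicates 4, 5 and 6 had the highest list means of lymphoid and acinar markers (below). Without them 12 of the 46 rose, against 18.0% of all genes. Of the 12, 10 were among the 19, and Cxcl9 and Gbp4 were added.

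Set against untreated islets, AdNkx6.1 gave a median log2 change of 1.32 over the 46, against -0.01 over all genes. In this comparison 43 of the 46 rose and 0 fell, while 16.9% of all genes rose and 13.8% fell. At least 2-fold, 30 of the 46 rose (3.66% of all genes), and 42 did not overlap (17.4% of all genes). This comparison shares its untreated arrays with the first and its AdNkx6.1 arrays with the second, so its values are not a separate line of evidence. Sp110, Adar and Ube2l6 passed in none of the comparisons. Dimmer probe sets gave changes against untreated of 0.31 and 0.33 for Sp110 and of 0.13 and 0.56 for Adar, and were not tested singly. The probe sets used gave 0.19 and 0.17. With array weights Sp110, Adar and Ube2l6 all passed against untreated islets (changes of 0.24, 0.25 and 0.49). In that fit 46 of 46 members rose, against 27.2% of all genes.

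**Figure D2:**
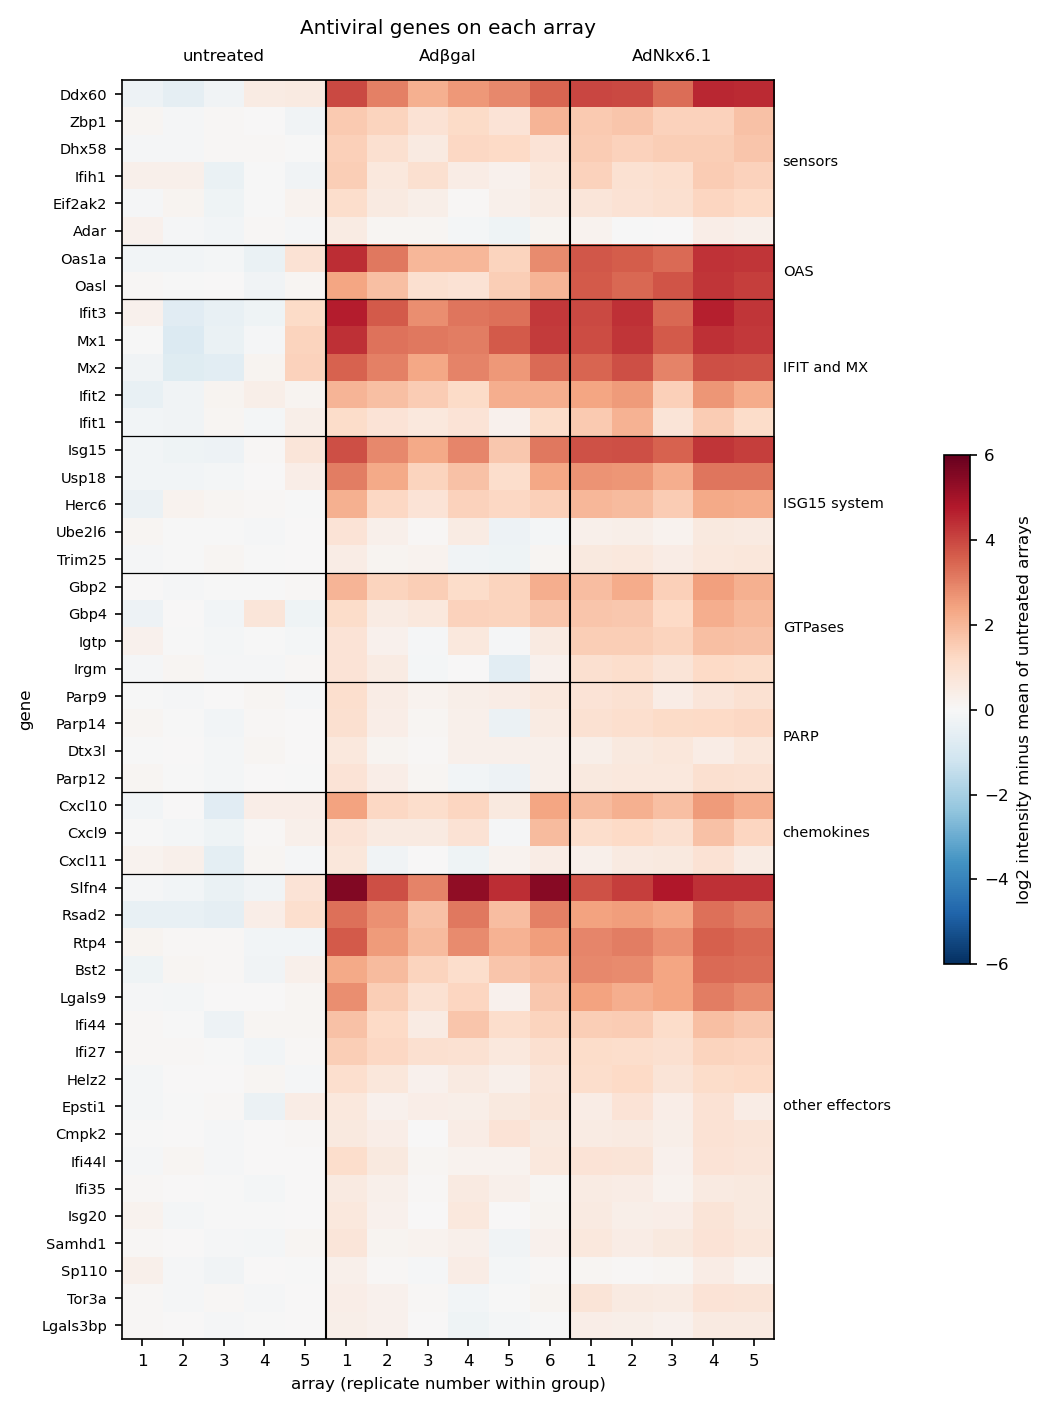
Each cell is a gene's log2 intensity on 1 array minus the mean of the 5 untreated arrays, with genes in rows grouped by role and the 16 arrays in columns by replicate number within each group. Virus-treated columns are redder than untreated columns for most rows, Adβgal replicate 1 is the deepest of its group, and Slfn4 shows the largest differences.

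The genes are listed here by which comparisons they passed. The share of all genes with each of these patterns was not computed, so the counts are only a listing. In the single comparisons 2.84% of all genes rose with Adβgal, 16.6% between the viruses and 16.9% with AdNkx6.1 against untreated. Mx1, Mx2, Ifit2, Ifit3, Rsad2, Usp18, Slfn4, Ifih1, Gbp2, Gbp4, Ifi27, Ifi44, Cmpk2, Parp9, Rtp4, Zbp1, Cxcl10 and Epsti1 (18 genes) were higher with each virus than in untreated islets and did not pass between the viruses. Ifit1, Isg15, Oas1a, Oasl, Dhx58, Ddx60, Herc6, Bst2, Lgals9 and Helz2 (10 genes) passed in all comparisons. Eif2ak2, Igtp, Irgm, Parp12, Parp14, Trim25, Samhd1, Lgals3bp and Tor3a (9 genes) did not pass with the control virus but were higher with AdNkx6.1 than with either other group. Isg20, Ifi35, Ifi44l, Dtx3l, Cxcl9 and Cxcl11 (6 genes) passed only for AdNkx6.1 against untreated islets. Passing in one comparison and missing in another does not show that the changes differ, because differences between the comparisons were not tested.

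**Figure D3:**
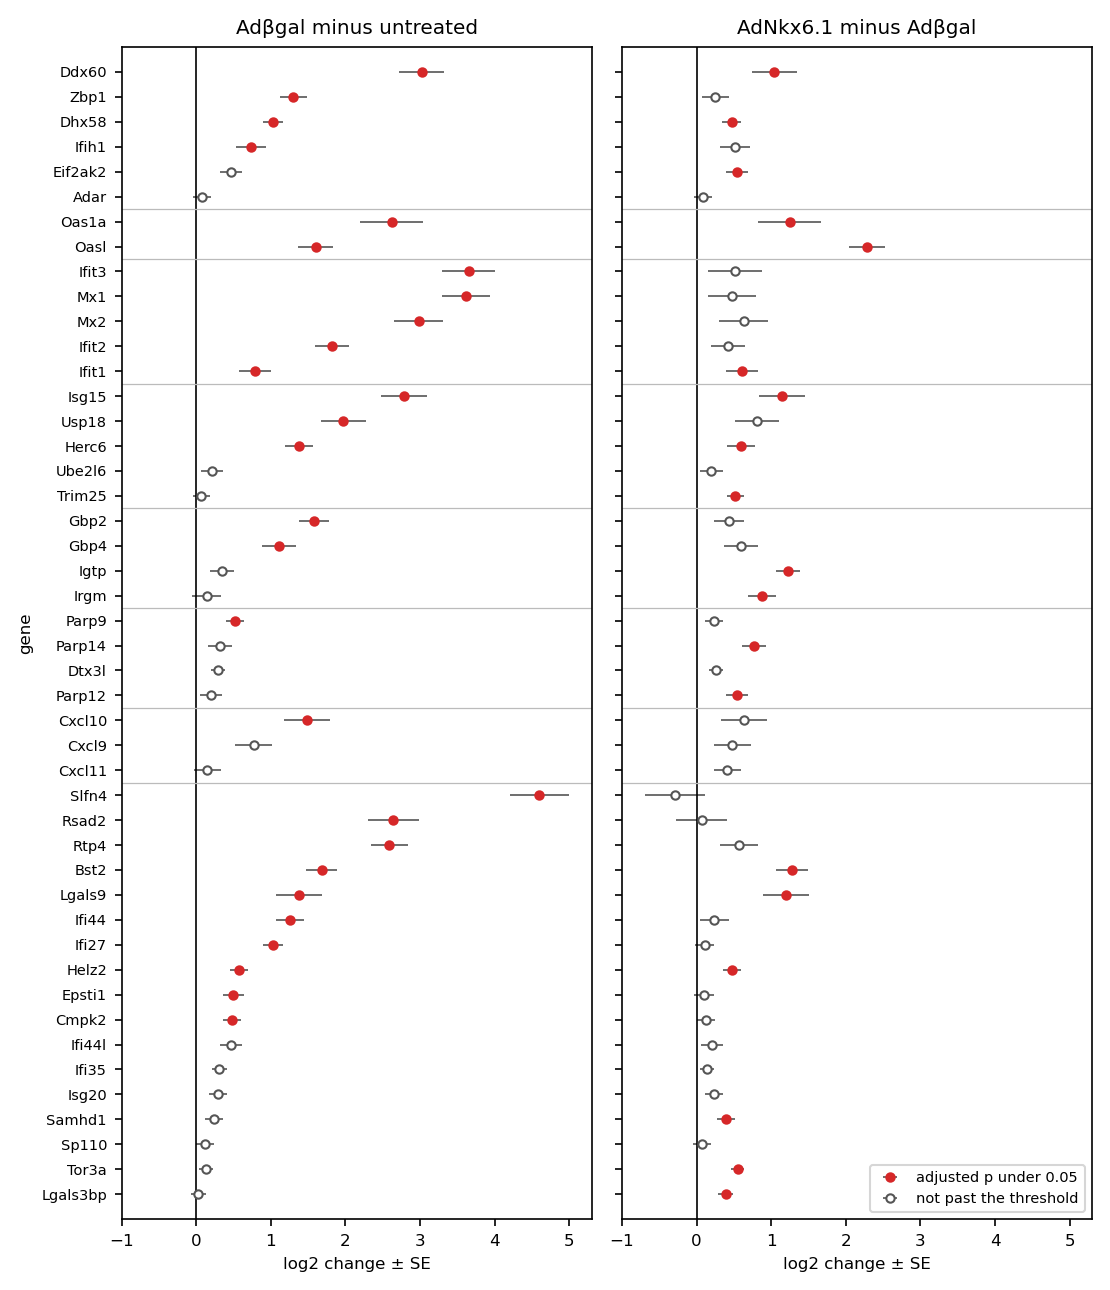
Log2 change with its standard error for each of the 46 genes, for Adβgal minus untreated on the left and AdNkx6.1 minus Adβgal on the right, with filled points for an adjusted p under 0.05. Slfn4, read from its brighter probe set, has the largest change on the left (4.6) and a change of -0.29 on the right, whereas Oasl leads on the right (2.28).

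Among the sensors, 4 of the 6 measured rose with the control virus and 3 of 6 between the viruses. Ddx60, a helicase that assists RNA sensing, read 5.69, 5.49, 5.78, 6.52 and 6.57 on untreated replicates 1 to 5. With Adβgal its lowest, median and highest arrays read 8.16, 8.98 and 9.98, and AdNkx6.1 replicates 1 to 5 read 10.01, 9.97, 9.38, 10.52 and 10.49. No array with virus overlapped the untreated arrays, while the virus groups overlapped each other. Ddx60 was 8.13-fold higher with Adβgal than untreated (log2 change 3.02 ± 0.3 SE, limma adjusted p = 3.8e-05). AdNkx6.1 exceeded Adβgal by 1.04 ± 0.3 (adjusted p = 0.019), which went above the threshold without AdNkx6.1 replicate 4 or 5 (highest 0.058) and to 0.064 without Adβgal replicates 4, 5 and 6.

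Dhx58 encodes LGP2, a regulator of RNA sensing by its relatives Ddx58 and Ifih1. Its untreated arrays read 10.58, 10.57, 10.72, 10.7 and 10.59, the Adβgal arrays 11.19, 11.7 and 12.08 (lowest, median, highest) and the AdNkx6.1 arrays 12.15, 12.02, 12.13, 12.1 and 12.29. Virus and untreated arrays were fully apart, and the highest Adβgal array lay inside the AdNkx6.1 range. The change was 1.03 ± 0.13 with Adβgal (2.05-fold, adjusted p = 0.00022) and a further 0.47 ± 0.13 with AdNkx6.1 (adjusted p = 0.011). All 3 Dhx58 probe sets moved alike, with changes of 0.89 to 1.05 and then of 0.47 to 0.66.

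Zbp1, a sensor of Z-form nucleic acid that can start necroptosis, rose 2.46-fold with Adβgal (adjusted p = 0.00062) and was 0.25 ± 0.18 above it with AdNkx6.1 (adjusted p = 0.33). Ifih1, the RNA sensor MDA5, rose 1.67-fold with Adβgal (adjusted p = 0.036), a call that was lost without any 1 of 5 arrays (highest adjusted p 0.092). Eif2ak2 (PKR), a kinase that halts translation on double-stranded RNA, did not pass with Adβgal (0.47 ± 0.15, adjusted p = 0.067) and was 1.45-fold higher with AdNkx6.1 than with Adβgal (adjusted p = 0.014). Without Adβgal replicates 4, 5 and 6 these results for Eif2ak2 changed sides, to 0.65 (adjusted p = 0.043) and 0.36 (adjusted p = 0.12). Adar, which edits adenosines in double-stranded RNA, changed by 0.08 and 0.09 in these comparisons (adjusted p = 0.7 and 0.65). Other Adar probe sets, both dimmer, gave 0.11 and 0.02, and 0.22 and 0.34.

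Both measured OAS genes of the list rose in both comparisons. Oas1b, which is not on the list, rose with Adβgal (2.34, limma adjusted p = 0.0036) and did not pass between the viruses (0.25, adjusted p = 0.7). The OAS proteins sense double-stranded RNA, and Oas1a makes the oligoadenylate that switches on RNase L. Oasl read 8.12, 8.02, 8.07, 7.84 and 8.15 untreated. Its lowest, median and highest Adβgal arrays were 8.92, 9.69 and 10.43, and the AdNkx6.1 arrays were 11.71, 11.48, 11.83, 12.33 and 12.21. The groups formed separate steps with no overlap. Oasl was 3.02-fold higher with Adβgal than untreated (1.6 ± 0.24, adjusted p = 0.0015) and 4.85-fold higher with AdNkx6.1 than with Adβgal (2.28 ± 0.24, adjusted p = 3.5e-06), the largest change of any member between the viruses. Without Adβgal replicates 4, 5 and 6 the change of Oasl was 2.15 (adjusted p = 4.2e-05).

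Oas1a read 6.26, 6.26, 6.29, 6.04 and 7.27 untreated, with replicate 5 above the rest. With Adβgal it ran from 7.78 through a median of 8.84 to 10.85, and with AdNkx6.1 it read 10.17, 10.05, 9.83, 10.75 and 10.7. Adβgal replicate 1 lay above every AdNkx6.1 array, and the SD of 1.1 was the widest of any member in the Adβgal group. The change was 2.62 ± 0.42 with Adβgal (6.16-fold, adjusted p = 0.0024). AdNkx6.1 exceeded Adβgal by 1.25 ± 0.42 (adjusted p = 0.04), a call kept in 8 of 16 fits without 1 array, and by 0.69 without Adβgal replicates 4, 5 and 6 (adjusted p = 0.27).

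All 5 IFIT and MX genes rose with the control virus and 1 of them, Ifit1, between the viruses. IFIT proteins bind viral RNA that lacks the host's cap marks, and Mx proteins are dynamin-like GTPases that trap viral nucleocapsids. Ifit3 read 6.09, 5.14, 5.36, 5.54 and 6.95 untreated and 9.8, 10.22, 9.27, 10.5 and 10.11 with AdNkx6.1, and Adβgal arrays ran from 8.59 through 9.29 to 10.55. The virus groups overlapped almost completely and stood clear of the untreated arrays. Ifit3 was 12.5-fold higher with Adβgal than untreated (3.65 ± 0.36, adjusted p = 3.6e-05), and the difference between the viruses was 0.52 (95% interval -0.25 to 1.29).

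Mx1 read 6.87, 6.08, 6.49, 6.8 and 8.21 untreated. Adβgal arrays ran from 9.95 through 10.36 to 11.26, and AdNkx6.1 arrays read 10.82, 11.17, 10.58, 11.26 and 11.13. Untreated replicate 5 was the highest of its group yet below all virus arrays. Mx1 rose 12.3-fold with Adβgal (3.62 ± 0.32, adjusted p = 1.5e-05) and differed between the viruses by 0.48 (95% interval -0.21 to 1.17).

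Mx2 read 7.41, 6.93, 7.02, 7.81 and 9.0 untreated, 9.94, 10.64 and 11.19 as the lowest, median and highest with Adβgal, and 11.11, 11.51, 10.61, 11.51 and 11.44 with AdNkx6.1. Untreated replicate 5 was again the highest without reaching the virus arrays. The change was 7.88-fold with Adβgal (2.98 ± 0.33, adjusted p = 8.6e-05), and a second probe set gave 3.38. Ifit2 rose 3.52-fold (adjusted p = 0.00036).

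Ifit1 was dim on every array. Its untreated arrays read 3.77, 3.73, 4.03, 3.8 and 4.27, the Adβgal arrays 4.16, 4.75 and 5.04, and the AdNkx6.1 arrays 5.49, 5.99, 4.67, 5.43 and 5.03. Neighbouring groups overlapped. It rose by 0.79 ± 0.21 with Adβgal (adjusted p = 0.03) and by a further 0.61 ± 0.21 with AdNkx6.1 (adjusted p = 0.04), and these calls held in 11 and 9 of 16 fits without 1 array. Both calls of Ifit1 were lost without Adβgal replicates 4, 5 and 6 (adjusted p = 0.062 and 0.11). Detection calls were not used, so a fold against so dim a level is not exact.

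In the ISG15 system 3 of 5 genes rose with the control virus and 3 of 5 between the viruses. Isg15 is a ubiquitin-like protein joined to other proteins, Herc6 is its ligase in rodents, and Usp18 removes it and damps receptor signalling. Isg15 read 9.46, 9.37, 9.32, 9.69 and 10.34 untreated. Adβgal arrays ran from 11.23 through 12.54 to 13.52, and AdNkx6.1 arrays read 13.46, 13.5, 13.19, 13.93 and 13.79. Adβgal replicate 1 lay within the AdNkx6.1 range and the other Adβgal arrays below it. Isg15 was 6.91-fold higher with Adβgal (2.79 ± 0.31, adjusted p = 8.9e-05) and 2.22-fold higher again with AdNkx6.1 (1.15 ± 0.31, adjusted p = 0.012).

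Usp18 rose 3.93-fold with Adβgal (adjusted p = 0.0016) and differed between the viruses by 0.81 ± 0.3 (adjusted p = 0.056). Herc6 rose 2.6-fold with Adβgal (adjusted p = 0.00066) and 1.52-fold further with AdNkx6.1 (adjusted p = 0.028, up to 0.078 without 1 array and 0.1 without Adβgal replicates 4, 5 and 6). Trim25, a ubiquitin ligase that activates RNA sensing, read 10.11, 10.2, 10.3, 10.18 and 10.22 untreated, 9.94, 10.34 and 10.65 as the lowest, median and highest with Adβgal, and 10.79, 10.83, 10.64, 10.83 and 10.86 with AdNkx6.1. Adβgal arrays surrounded the untreated level, and all AdNkx6.1 arrays but replicate 3 lay above both, replicate 3 being just under the highest Adβgal array. Trim25 changed by 0.07 ± 0.11 with Adβgal (adjusted p = 0.73) and was 1.43-fold higher with AdNkx6.1 (0.52 ± 0.11, adjusted p = 0.002). Ube2l6, the conjugating enzyme for Isg15, changed by 0.21 and 0.2 (adjusted p = 0.43 and 0.37).

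Interferon-inducible GTPases attack the vacuoles and membranes of intracellular microbes. Of the 4 measured, Gbp2 and Gbp4 rose with the control virus, and Igtp and Irgm rose between the viruses. Igtp read 10.11, 9.81, 9.72, 9.81 and 9.71 untreated. Its Adβgal arrays ran from 9.74 through 10.23 to 10.65, and AdNkx6.1 arrays read 11.32, 11.3, 11.18, 11.66 and 11.59. Adβgal overlapped untreated, whereas every AdNkx6.1 array stood above both. Igtp changed by 0.35 ± 0.16 with Adβgal (adjusted p = 0.18) and was 2.34-fold higher with AdNkx6.1 (1.23 ± 0.16, adjusted p = 2.9e-05). A second, dimmer Igtp probe set gave 0.09 and 1.08, and without Adβgal replicates 4, 5 and 6 the difference between the viruses was 1.25 (adjusted p = 0.00015).

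Irgm, a regulator of the same GTPase family, read 9.3, 9.5, 9.31, 9.33 and 9.46 untreated, 8.74, 9.53 and 10.22 as the lowest, median and highest with Adβgal, and 10.32, 10.44, 10.14, 10.59 and 10.5 with AdNkx6.1. Only Adβgal replicate 1 reached the AdNkx6.1 range. The difference between the viruses was 0.88 ± 0.19 (1.83-fold, adjusted p = 0.0027), and it was 0.62 without Adβgal replicates 4, 5 and 6 (adjusted p = 0.014).

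Gbp2, a guanylate-binding protein, read 8.52, 8.47, 8.51, 8.51 and 8.58 untreated. Adβgal arrays ran from 9.6 through 9.94 to 10.68, and AdNkx6.1 arrays read 10.39, 10.76, 9.94, 10.97 and 10.64. Its untreated arrays were nearly identical and the virus groups overlapped. Gbp2 rose 2.99-fold with Adβgal (1.58 ± 0.2, adjusted p = 0.00027) and differed between the viruses by 0.44 (95% interval 0.03 to 0.85, adjusted p = 0.11).

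Of the ADP-ribosyltransferases Parp9, Parp12 and Parp14 and the Parp9 partner Dtx3l, 1 of 4 rose with the control virus and 2 of 4 between the viruses. Parp9 read 10.77, 10.71, 10.82, 10.92 and 10.69 untreated, with 10.98, 11.25 and 11.8 as the lowest, median and highest with Adβgal, and 11.59, 11.68, 11.22, 11.52 and 11.69 with AdNkx6.1. Untreated arrays lay just below both virus groups. It rose 1.44-fold with Adβgal (0.52 ± 0.12, adjusted p = 0.019), with an adjusted p up to 0.054 without 1 array and of 0.062 without Adβgal replicates 4, 5 and 6.

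Parp14 read 9.99, 9.84, 9.68, 9.93 and 9.86 untreated, 9.53, 10.21 and 10.82 as the lowest, median and highest with Adβgal, and 10.77, 10.89, 10.99, 11.05 and 11.08 with AdNkx6.1. Adβgal replicate 1 alone reached the AdNkx6.1 range. The difference between the viruses was 0.77 ± 0.16 (1.71-fold, adjusted p = 0.002), and a second probe set gave 0.97. Parp12 also rose between the viruses (0.54 ± 0.15, adjusted p = 0.017), with an adjusted p of 0.051 without AdNkx6.1 replicate 4 and of 0.13 without Adβgal replicates 4, 5 and 6.

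Among the other effectors 10 of the 17 measured rose with the control virus and 6 of 17 between the viruses. Slfn4, a Schlafen protein of myeloid cells, read 4.85, 4.78, 4.51, 4.72 and 5.76 untreated. Adβgal arrays ran from 7.92 through 9.8 to 10.47, and AdNkx6.1 arrays read 8.73, 9.08, 9.73, 9.31 and 9.31. The virus arrays overlapped and stood far above the untreated arrays, of which replicate 5 was the highest. Slfn4 rose by 4.6 ± 0.4 with Adβgal on the log2 scale (adjusted p = 1.1e-05) and differed between the viruses by -0.29 (95% interval -1.14 to 0.55).

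A second Slfn4 probe set stayed near the bottom of the intensity range in all groups (3.55, 3.48 and 3.52 as the means of untreated, Adβgal and AdNkx6.1), so the change rests on 1 probe set. With the mean of both probe sets Slfn4 rose by 2.27, below Ifit3 (3.65) and Mx1 (3.62). RefSeq lists Slfn3 as another name of Slfn4. Rsad2 (viperin), which makes a chain-terminating nucleotide, rose 6.25-fold with Adβgal (adjusted p = 0.00036) and differed between the viruses by 0.07 (95% interval -0.64 to 0.79). Its neighbour on the chromosome, Cmpk2, a nucleotide kinase, rose 1.39-fold (adjusted p = 0.026, up to 0.059 without 1 array and 0.16 without Adβgal replicates 4, 5 and 6). Rtp4 rose 6.03-fold (adjusted p = 2.9e-05).

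Bst2 (tetherin), which holds budding virus at the cell surface, read 8.56, 8.9, 8.86, 8.61 and 9.09 untreated. Its Adβgal arrays ran from 9.84 through 10.56 to 11.09, and AdNkx6.1 arrays read 11.69, 11.62, 11.17, 12.19 and 12.16. The groups did not overlap, although AdNkx6.1 replicate 3 lay close to the highest Adβgal array. Bst2 rose 3.21-fold with Adβgal (1.68 ± 0.21, adjusted p = 0.00036) and 2.43-fold further with AdNkx6.1 (1.28 ± 0.21, adjusted p = 0.00033). Without Adβgal replicates 4, 5 and 6 the second difference was 1.12 (adjusted p = 0.0035).

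Lgals9, galectin-9, a sugar-binding protein that acts on T cells, read 7.67, 7.59, 7.75, 7.76 and 7.84 untreated. With Adβgal it ran from 7.96 through 9.11 to 10.5, and with AdNkx6.1 it read 10.12, 9.92, 10.11, 10.78 and 10.58. Adβgal replicate 1 was again inside the AdNkx6.1 range. Lgals9 rose 2.61-fold with Adβgal (1.38 ± 0.31, adjusted p = 0.015) and 2.3-fold further with AdNkx6.1 (1.2 ± 0.31, adjusted p = 0.0093), a call lost without Adβgal replicates 4, 5 and 6 (0.86, adjusted p = 0.059).

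Tor3a, an ATPase of the endoplasmic reticulum, read 10.69, 10.54, 10.7, 10.56 and 10.65 untreated and 11.38, 11.17, 11.14, 11.44 and 11.41 with AdNkx6.1, and its Adβgal arrays ran from 10.48 through 10.76 to 11.04. AdNkx6.1 arrays lay above all others. The difference between the viruses was 0.55 ± 0.09 (1.47-fold, adjusted p = 0.00038). Helz2 and the small changes of Samhd1, which depletes nucleotides, and Lgals3bp, a secreted glycoprotein, also passed between the viruses (0.48, 0.39 and 0.39, adjusted p = 0.0058, 0.026 and 0.0069). Samhd1 lost its call without an AdNkx6.1 replicate (4 or 5; adjusted p up to 0.075). Both Samhd1 and Lgals3bp lost theirs without Adβgal replicates 4, 5 and 6 (0.27 and 0.23, adjusted p = 0.12 and 0.07).

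Of the chemokines that draw T cells through the receptor Cxcr3, 1 of 3 rose with the control virus and 0 of 3 passed between the viruses in limma. Cxcl10 read 8.9, 9.09, 8.39, 9.47 and 9.48 untreated, 9.63, 10.32 and 11.5 as the lowest, median and highest with Adβgal, and 10.98, 11.22, 10.89, 11.64 and 11.26 with AdNkx6.1. All virus arrays lay above the untreated arrays, by a small margin for the lowest Adβgal array. Cxcl10 rose 2.81-fold with Adβgal (1.49 ± 0.31, adjusted p = 0.0099) and differed between the viruses by 0.64 (95% interval -0.01 to 1.29).

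Cxcl11 read 10.46, 10.58, 9.67, 10.37 and 10.18 untreated, 9.99, 10.37 and 10.95 as the lowest, median and highest with Adβgal, and 10.57, 10.81, 10.85, 11.11 and 10.74 with AdNkx6.1. Its groups overlapped throughout, apart from untreated replicate 3, which was the lowest of all arrays. AdNkx6.1 exceeded untreated by 0.56 ± 0.19 (adjusted p = 0.034), a call kept in 10 of 16 fits without 1 array. Between the viruses the unadjusted p was 0.039 for Cxcl11, 0.054 for Cxcl10 and 0.076 for Cxcl9. With Adβgal against untreated, Cxcl9 changed by 0.77 in the probe set used and by 1.35 in a dimmer one. With the mean of its probe sets Cxcl9 passed in that comparison.

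**Figure D4:**
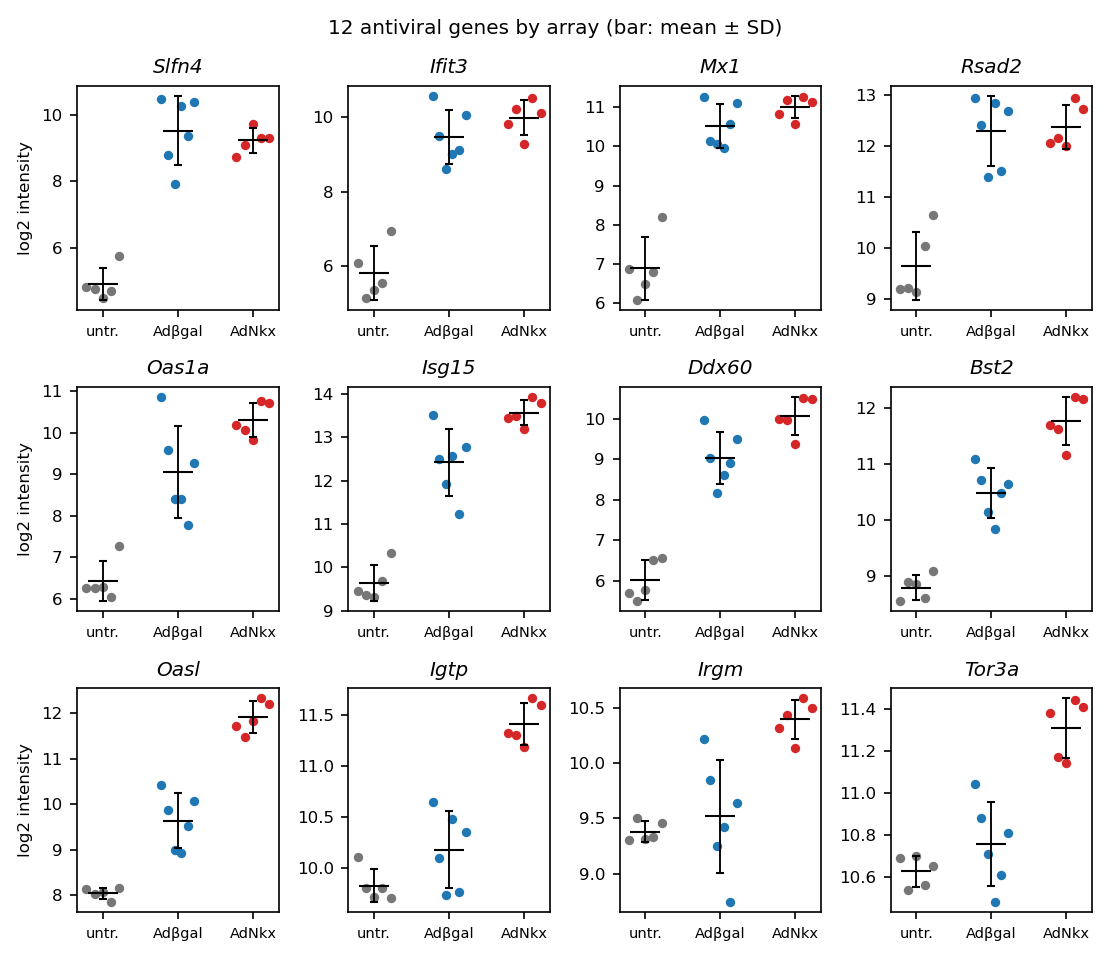
Log2 intensity of 12 antiviral genes on each array, as 1 point per array by group (untreated, Adβgal, AdNkx6.1), with a bar for the mean and SD. The arrays of both viruses overlap for Slfn4, Ifit3, Mx1 and Rsad2, Oasl and Bst2 form separate steps, and Igtp and Tor3a are set apart with AdNkx6.1 alone.

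Within a group, many members were highest on the same array. The mean of the 46 genes relative to untreated was -0.02, -0.08, -0.13, 0.02 and 0.21 on untreated replicates 1 to 5. It was 1.79, 1.19, 0.84, 1.11, 0.87 and 1.43 on Adβgal replicates 1 to 6, and 1.66, 1.71, 1.46, 2.0 and 1.88 on AdNkx6.1 replicates 1 to 5. All virus arrays exceeded all untreated arrays, and Adβgal replicate 1 lay above 3 of the 5 AdNkx6.1 arrays. That replicate was the highest of its group for 37 of 46 members (13.8% of all genes), AdNkx6.1 replicate 4 for 35 (18.4%) and untreated replicate 5 for 20 (14.2%). AdNkx6.1 replicate 3 was the lowest of its group for 32 (41.9% of all genes).

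The members also spread more within groups than other genes. Their median SD was 0.17, 0.42 and 0.23 untreated, with Adβgal and with AdNkx6.1, against 0.12, 0.23 and 0.15 over all genes. In 43 of the 46 the SD was larger with Adβgal than with AdNkx6.1, as it was for 79.4% of all genes.

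Markers of other cell types differed between arrays and groups as well. Adβgal replicates 4, 5 and 6 had list means of 0.79, 1.26 and 1.43 above untreated for 9 T, NK and B cell markers, and of 1.72, 1.08 and 1.22 for 11 acinar markers. AdNkx6.1 replicate 1 came close for the first list, with a mean of 0.68, and had an acinar mean of -0.14. Adβgal replicate 1, which had the highest antiviral mean of its group, had means of -0.18 and 0.13 for these lists. With Adβgal as a group against untreated, 0 of the 9 lymphoid and 0 of the 11 acinar markers passed as higher. Gzmb (lymphoid) and Bhlha15 (acinar) passed as lower, and Tagln, a stellate cell and fibroblast marker, as higher. Over all genes 2.84% were higher and 4.17% lower. The summed intensity of the 9 lymphoid markers ranged over 317 to 390 in untreated islets, 292 to 807 under the control virus and 427 to 730 under AdNkx6.1. The median log2 change of the 9 with AdNkx6.1 against untreated was -0.15. Their list means were -0.02, 0.09, -0.01 and 0.12 on AdNkx6.1 replicates 2 to 5, against 0.68 on replicate 1. Cd3e, Cd3d, Cd3g and Ms4a1 were dim (mean log2 of 4.18, 4.16, 4.24 and 3.97 over all arrays). A sum weighs the brightest marker most, and the highest marker mean was 6.82 untreated, 6.85 with Adβgal and 7.94 with AdNkx6.1. For the 12 macrophage and dendritic cell markers the sums were 9375 to 12017, 9810 to 19107 and 8471 to 13183 in the same order, and 1 of them (Adgre1) passed as higher with Adβgal than untreated and as lower with AdNkx6.1 than with Adβgal. The 11 acinar markers summed to 22666 to 34866, 18043 to 74726 and 20005 to 44274. Endothelial markers (6 genes) had list means of -1.01, 0.58, 0.94, 0.28, 1.84 and 1.13 on Adβgal replicates 1 to 6 and passed in none of the comparisons. Between the viruses, where the antiviral genes rose, 4 of 6 alpha, delta and PP cell markers fell (Irx2, Hhex, Ppy and Pyy). So did 2 of 7 beta cell markers (Pdx1 and Nkx6-1) and 3 of 11 acinar markers (Cpa1, Ptf1a and Cuzd1). Of 8 stellate cell and fibroblast markers 2 fell (Dcn and Tagln). Over all genes 8.48% fell. Of the markers outside the antiviral list, Lck (lymphoid) and Krt7 (duct) rose. With AdNkx6.1 against untreated, 5 of 6 alpha, delta and PP cell markers and 5 of 7 beta cell markers fell, against 13.8% of all genes. In that comparison Csf1r, Mrc1, Ptf1a, Bhlha15 and Dcn also fell, and Lck and Krt7 rose. No defining marker read 0, since the arrays have a background level. Without Adβgal replicates 4, 5 and 6, 24 of the 46 antiviral genes rose with Adβgal against untreated (1.72% of all genes). In the same fit 44 rose with AdNkx6.1 against untreated (22.7% of all genes). The part of other cell types in these results was not tested beyond that.

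**Figure D5:**
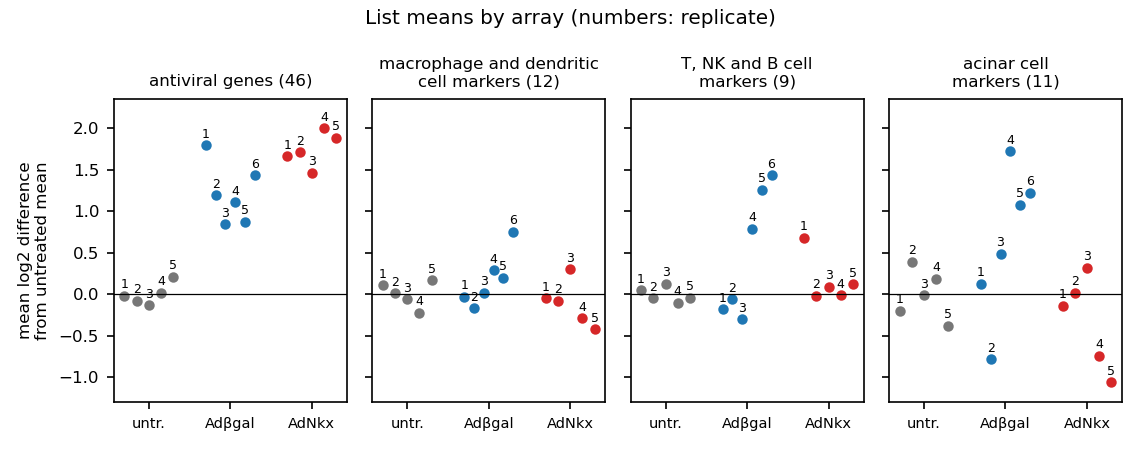
Mean log2 difference from the untreated mean on each array for the 46 antiviral genes and for markers of macrophages and dendritic cells, of T, NK and B cells and of acinar cells, with points numbered by replicate. Every virus array is above every untreated array for the antiviral genes. Adβgal replicates 4, 5 and 6 are the highest for lymphoid and acinar markers, with AdNkx6.1 replicate 1 close to them for lymphoid markers (0.68).

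A second list held 37 symbols of genes that act upstream, namely interferons, their receptors, signal transducers and regulators, of which 26 were measured. The interferon alpha genes and Cgas were among the 11 symbols not analysed here. Sting1 and Tmem173 name the same gene, which was measured as Sting1, and Cgas and Mb21d1 also name the same gene. With the control virus 3 of 26 rose and 0 fell, against 2.84% and 4.17% of all genes, with a median log2 change of -0.04. Irf7, the factor that amplifies interferon production, went from 8.84 ± 0.26 (SD, n = 5) to 11.61 ± 0.55 (n = 6), a 6.8-fold rise (2.77 ± 0.23 SE, adjusted p = 8.3e-06). Stat2 rose by 0.73 ± 0.13 (adjusted p = 0.0045) and Irf9 by 0.52 ± 0.12 (adjusted p = 0.018).

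Between the viruses 8 of 26 upstream genes rose and 0 fell, against 16.6% and 8.48% of all genes, with a median of 0.18. Ifnlr1, the receptor chain for interferon lambda, went from 8.42 ± 0.17 with Adβgal to 9.28 ± 0.17 with AdNkx6.1 (1.82-fold, adjusted p = 4e-06). Ifngr2, a chain of the interferon gamma receptor, rose 1.42-fold (adjusted p = 0.00035), as did the feedback inhibitor Socs1 (1.42-fold, adjusted p = 0.0004). Tyk2, Stat2, Irf1, Irf7 and Myd88 also passed. Against untreated islets 8 of 26 rose with AdNkx6.1 and 0 fell (16.9% and 13.8% of all genes; median 0.14), and the smallest p-values were those of Irf7 (11-fold, adjusted p = 4.3e-08), Ifnlr1 (2.1-fold, adjusted p = 5.6e-07) and Stat2 (2.65-fold, adjusted p = 1.7e-06).

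The 3 interferon genes measured were dim. Ifnb1 read 5.05 ± 0.1 untreated, 5.0 ± 0.21 with Adβgal and 4.9 ± 0.22 with AdNkx6.1, with a 95% interval of -0.29 to 0.19 for the change with Adβgal. Ifng read 3.66 ± 0.1, 3.51 ± 0.18 and 3.56 ± 0.07. Ifnk, interferon kappa, read 4.72 ± 0.31, 5.61 ± 0.6 and 5.42 ± 0.69, a change of 0.89 ± 0.31 with Adβgal (unadjusted p = 0.011, adjusted p = 0.091) and of 0.69 ± 0.32 with AdNkx6.1 against untreated (unadjusted p = 0.048, adjusted p = 0.12). At these intensities a change may not be detectable.

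Outside the list, the genes whose log2 levels followed the mean of the antiviral genes most closely over the 16 arrays were Apol9a (Pearson r 0.994), Irf7 (0.981), Stat2 (0.97), Rnf213 (0.964) and Uba7 (0.963). The correlation is a description, since the arrays share the 3 treatments. Apol9a rose by 2.29 with Adβgal and by 0.88 further with AdNkx6.1 (adjusted p = 0.00043 and 0.039). Uba7, the activating enzyme for Isg15, rose by 0.95 with Adβgal (adjusted p = 0.0062) and differed between the viruses by 0.49 (adjusted p = 0.057). Among the members, Adar (0.519), Sp110 (0.524), Cxcl11 (0.637) and Ube2l6 (0.677) followed the list least.

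Set beside the promoter windows, 16 of the 19 members that rose between the viruses had a RefSeq promoter, of which 10 held an ISRE, 6 a GAS and 4 both close together. Of the 27 members that did not pass, 21 had a promoter, of which 13 held an ISRE, 3 a GAS and 0 both close together. The close arrangement was picked out after these values were seen, so its counts are a description.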

How the data were processed

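The deposited table holds 1 intensity per probe set and array on a linear scale, from 6.25 to 35765. Per the submitters' processing notes the authors used RMA, a method for background correction, normalization across arrays and probe summary. Its version and the return to a linear scale are not given in the sources used here. Log2 of each deposited intensity was taken without a pseudocount. The treatment protocol states 5 replicates per condition, and all 6 Adβgal arrays were used. Detection calls were not used, and precision is limited by the number of arrays.

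Of 31099 probe sets, 57 were controls, 20826 had 1 gene symbol in the platform annotation (of 2016), 436 had several and 9780 had none. The brightest probe set of a symbol stood for its gene. The test was limma 3.58.1 under R 4.3.3 with lmFit, contrasts.fit and eBayes on all 16 arrays and the 3 groups together, 2-sided, with Benjamini-Hochberg adjustment over 14217 genes and a threshold of 0.05. Changes are log2 differences, and SE is the standard error limma gives them. Fits were tested on simulated data in which a gene had the same spread in every group. In the data the median SD over all genes was 0.12 untreated, 0.23 with Adβgal and 0.15 with AdNkx6.1. The simulation does not cover such a difference in spread. Tables and figures used Python 3.11.15, pandas 2.3.3 and matplotlib 3.10.9. Promoters and neighbours are from RefSeq (GRCr8).

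The members, the upstream and marker lists and their roles were chosen with earlier results of these data known. Values by array (for the 6 Adβgal arrays the lowest, median and highest) are given for the 6 members of largest change past the threshold in each comparison and, in each role, for the member of smallest p with Adβgal against untreated and with AdNkx6.1 against Adβgal. Irgm and Tor3a were added after their values were seen. Of the upstream genes, the 3 of smallest p in each comparison are given. Replicate numbers are shared by the groups. Deviations of same-numbered arrays from their group means correlated between -0.387 and 0.249, with 1, 0 and 2 of 5 pairs over 0.1, so the numbers were not taken to pair the arrays. Alternatives covered normalization, probe set choice, dim genes, the groups in the fit, eBayes settings, array weights, a replicate block and leaving out arrays.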

Additional observations from a re-analysis of the deposited data

Results flagged for a closer look

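Among 138 gene and group combinations checked for an array far from the others, 4 were past the 95% limit, and chance gives about 1 in 20. In untreated replicate 5, Oas1a read 7.27 with the next array at 6.29 (a gap of 0.801 of the group's range), and Slfn4 read 5.76 with the next at 4.85 (0.729). In untreated replicate 1, Igtp read 10.11 with the next at 9.81 (0.736). In AdNkx6.1 replicate 3, Ifi44l was low at 9.29 with the next at 9.75 (0.843).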

How the results depend on the processing

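The members that rose numbered 28 with Adβgal against untreated, 19 with AdNkx6.1 against Adβgal and 43 with AdNkx6.1 against untreated. Under any setting run 0 fell. Over all genes 2.84%, 16.6% and 16.9% rose in these comparisons. With array weights the counts were 29, 29 and 46, against 5.01%, 21.5% and 27.2% of all genes. Between the viruses the count was 12 without Adβgal replicates 4, 5 and 6 (18.0% of all genes), a setting chosen after seeing the data. With 1 array left out the counts ran from 24 to 30, from 13 (without AdNkx6.1 replicate 4) to 26 (without Adβgal replicate 1) and from 42 to 44. In these fits the share of all genes that rose ran from 1.49% to 4.14%, from 13.6% to 18.5% and from 14.3% to 19.3%. It was 13.9% beside the count of 13 and 16.4% beside the count of 26. Calls held without every single array for 23 of 28, 13 of 19 and 42 of 43 members. The replicate block gave 23, 16 and 42 (1.07%, 13.7% and 14.9% of all genes). A repeated quantile normalization gave 27, 15 and 42 (3.01%, 14.6% and 15.0%). Fits of only the groups compared gave 26, 14 and 44 (1.49%, 12.8% and 23.3%). No called member reversed its direction under any setting run. The causes of these shifts were not tested. Dim probe sets such as those of Ifit1, Ifnb1 and Ifng limit what a change can show.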

Other observations

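The close spacing of GAS and ISRE seen in Igtp, Irgm, Parp14 and Bst2 occurs in the promoters of 28 genes, of which 13 were measured. Between the viruses 7 of the 13 rose and 0 fell. The 7 include Igtp, Irgm, Parp14 and Bst2, whose rise led to the arrangement being looked at, so that count cannot be set against all genes. Of the 9 that are not on the antiviral list, 3 rose and 0 fell, against 16.6% and 8.48% of all genes. The 3 were Irgm2, a GTPase of the Irgm family (0.55 ± 0.08 SE, limma adjusted p = 9.7e-05), the adaptor Myd88 (0.45 ± 0.08, adjusted p = 0.00088) and the deubiquitinase Mindy1 (0.4 ± 0.13, adjusted p = 0.028). Ifgga2l1 and Ifitm3, which blocks viral entry, rose with the control virus instead (1.55 and 0.6, adjusted p = 0.00019 and 0.00066) and did not pass between the viruses (0.3 and 0.13, adjusted p = 0.25 and 0.29). Agr2, Optn, Pts and Shisa5 passed in none of the comparisons. The arrangement was looked at after the members' values were seen, so these counts are a description.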
